A study of Homo sapiens with 6 samples.

Results

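Small nucleolar RNA host genes are genes whose introns carry small nucleolar RNAs. All rows of the gene table named SNHG with a number were taken, together with GAS5, ZFAS1, DANCR and EPB41L4A-AS1, which gave 32 of 38041 genes. HCT116, a human colorectal carcinoma line, was sequenced as 3 libraries of a negative control (NC) and 3 libraries of cells stably transfected with EPHX2 (overEXP), the gene of soluble epoxide hydrolase. The NC cells are described as carrying an empty vector, while another label field calls them untreated. Lentivirus and puromycin selection were used for the stable lines. All 6 libraries came from total RNA of cultured cells of this 1 line, and the paper's text speaks of several cell lines within each group without saying whether they were derived independently. The p-values therefore reflect only how far these libraries varied, and whether that variation is biological or technical is not known. The question addressed was how the levels of the host genes differed between overEXP and NC cells. Levels are FPKM, fragments scaled for transcript length and for the number of mapped fragments, and depth per library is unknown.

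In a host gene, the spliced exons form a long RNA that is usually non-coding, and the snoRNAs are trimmed from the introns that splicing releases. Box C/D snoRNAs guide 2'-O-methylation and box H/ACA snoRNAs guide pseudouridylation, mainly of ribosomal RNA, while small Cajal body RNAs act on spliceosomal RNAs. Many host genes start, as ribosomal protein genes do, with a terminal oligopyrimidine (TOP) tract, a C followed by further C or T bases, which ties translation to growth signals through mTOR and LARP1. Once such a spliced host RNA is translated, it is often removed by nonsense-mediated decay, so blocking translation raises the level of several of them.

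The TOP start was read in RefSeq promoters (GRCh38.p14), which held 28 of the 32 host genes. With the motif taken as a C and at least 4 further C or T on the gene's own strand, beginning within 10 bases of the annotated start, 17 of 28 host promoters (60.7%) had it, against 33.5% of 35116 promoters and 65 of the 79 ribosomal protein genes (82.3%). Beginning exactly at the annotated start, a stricter reading chosen after the sequences were seen, it was in 7 of 28 host promoters (25%), 4.07% of all promoters and 59.5% of the ribosomal protein genes. The 6 tested hosts with the tract at the start are printed here as the clearest cases. Each line runs from 30 bases before the start to 30 bases from it, with the tract in capitals, at chr1:28581844-28581903 (SNHG12, minus strand), chr5:139274071-139274130 (SNHG4, plus), chr6:31834886-31834945 (SNHG32, plus), chr6:85678704-85678763 (SNHG5, minus), chr16:2155329-2155388 (SNHG19, minus) and chr20:49278612-49278671 (ZFAS1, plus).
SNHG12: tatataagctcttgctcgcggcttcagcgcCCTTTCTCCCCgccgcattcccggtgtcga
SNHG4: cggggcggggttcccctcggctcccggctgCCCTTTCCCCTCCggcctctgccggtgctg
SNHG32: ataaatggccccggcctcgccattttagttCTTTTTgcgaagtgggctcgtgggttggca
SNHG5: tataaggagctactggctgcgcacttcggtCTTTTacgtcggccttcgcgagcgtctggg
SNHG19: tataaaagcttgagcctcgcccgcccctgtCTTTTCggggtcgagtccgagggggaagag
ZFAS1: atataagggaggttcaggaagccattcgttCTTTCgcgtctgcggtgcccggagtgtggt

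The tract was 13 bases long in SNHG4, 11 in SNHG12 and 5 in ZFAS1 and SNHG5. In SNHG32, SNHG5, SNHG19 and ZFAS1 the C was followed by a run of T, whereas SNHG12 and SNHG4 had mixed C and T. A match is a description of letters at an annotated start, not a measured start of the transcripts in these cells. For GAS5, known as a TOP host gene, SNHG3 and SNHG14, the RefSeq window lies wholly upstream of the gene as GENCODE v44 places it, so it did not read that start. SNHG14 was nevertheless counted among the 17 promoters with the tract, and GAS5 and SNHG3 among those without it.

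The transfected gene was read first. EPHX2 was at 1.67 ± 0.26 FPKM in NC and 167 ± 12.9 FPKM in overEXP (SD, n = 3 each). The epithelial genes EPCAM, CDH1, KRT8, KRT18 and KRT19 were at 9.23 FPKM or more in all 6 libraries, and the markers of blood, endothelial and liver cells PTPRC, CD3E, PECAM1, VWF and ALB were at 0.173 FPKM or less, while CD68 lay between 5.39 and 8.12 FPKM, COL1A1 between 2.29 and 5.72 FPKM and COL1A2 at 2.41 FPKM or less. The second overEXP library stood apart: 129 genes were at 1 FPKM or more in it and under 0.1 FPKM in the other 5 libraries, against 0 to 7 genes for each of the others, and CEACAM5 was at 122.9 FPKM in it but at 0.0480 FPKM or less elsewhere. Mitochondrially encoded genes took 29.6% to 34.6% of the summed FPKM in NC and 34.9% to 39.9% in overEXP, and the part of this share in the differences below was not tested.

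Host genes ranged widely in level. Of the 32, 25 reached 1 FPKM in 3 or more libraries and entered the test, and 11 averaged 10 FPKM or more. SNHG6, host of the box C/D snoRNA SNORD87, was the highest at 85.7, 78.9 and 68.4 FPKM in the NC libraries and 146.6, 96.7 and 95.9 FPKM in the overEXP libraries. SNHG29 and SNHG32 followed with nearly the same mean over all 6 libraries, SNHG32 being the higher in every NC library and SNHG29 in every overEXP library. SNHG29 was at 52.4, 51.2 and 44.3 FPKM in NC and 54.7, 49.9 and 48.4 FPKM in overEXP, and its groups overlapped. SNHG19 and SNHG1 exchanged order between libraries. SNHG6 alone made up 17.6% to 19.4% of the summed FPKM of the 32 genes in NC and 23.9% to 30.3% in overEXP.

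The sum itself was 443, 408 and 389 FPKM in the NC libraries and 485, 398 and 401 FPKM in the overEXP libraries, so the groups overlapped. Without SNHG6 it was 357, 329 and 320 FPKM in NC and 338, 302 and 305 FPKM in overEXP, which overlapped as well. Neither sum separated the groups. In bulk RNA, fewer cells with a transcript and less of it per cell cannot be told apart.

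**Figure D1:**
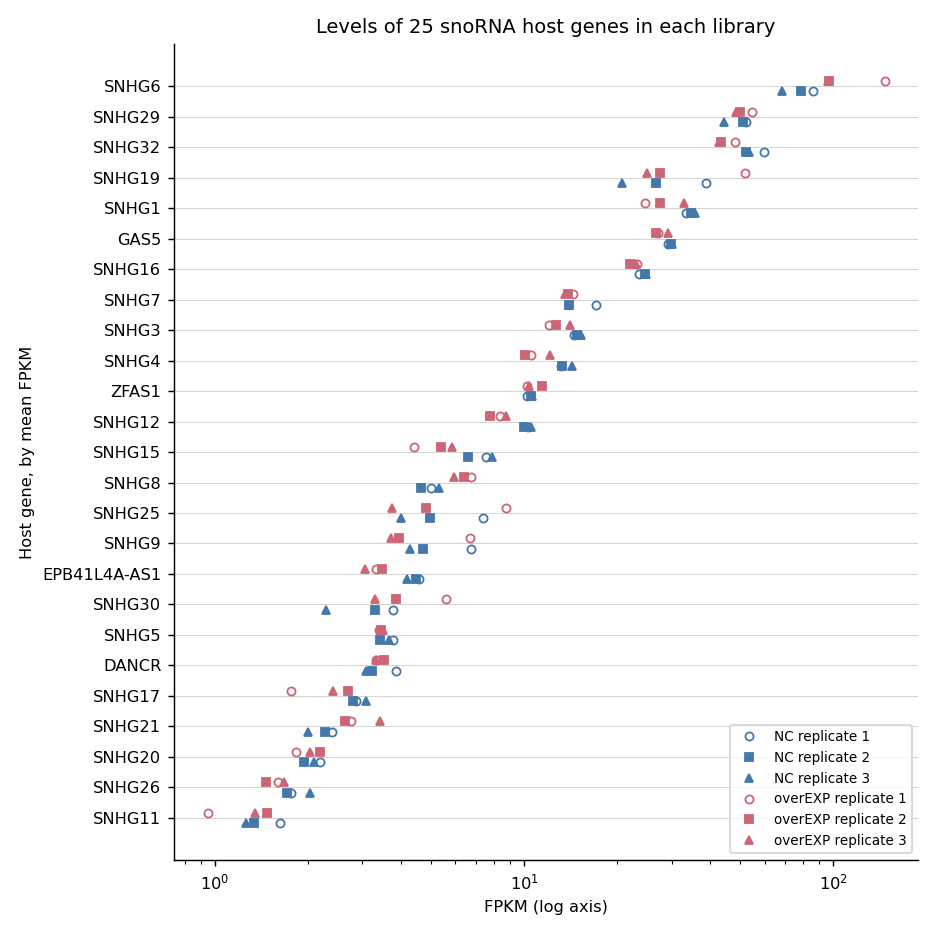
FPKM (log axis) of the 25 tested host genes in each of the 6 libraries, ordered by mean, with NC in blue and overEXP in red and 1 symbol per replicate number. SNHG6 is the highest and its 3 overEXP libraries lie above its NC libraries, from 95.9 to 146.6 FPKM.

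The other 7 host genes stayed under the filter. SNHG10, which carries the Cajal body RNA SCARNA13, was just below it at 0.761 to 0.940 FPKM. SNHG31, SNHG22, SNHG28, SNHG14 and SNHG27 did not exceed 0.533 FPKM in any library. SNHG14, the long imprinted transcript that carries the SNORD115 and SNORD116 clusters, was at 0.0110 FPKM or less. SNHG18 was at 2.05 FPKM in the second overEXP library, 0.0926 FPKM in the third NC library and listed at 0 in the others, so this level rested on the library that stood apart.

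Differences between the groups were small, and none passed the test. By limma on log2(FPKM + 1) over 12281 genes, with Benjamini-Hochberg adjustment and a threshold of 0.05, 0 of 25 host genes were called higher and 0 lower, while 1.25% of all genes tested were called higher and 2.98% lower. At an unadjusted p under 0.05, 3 hosts were higher and 7 lower, against 6.55% and 16.4% of all genes. In 3 hosts (12%) every overEXP library lay above every NC library, and in 11 (44%) every overEXP library lay below, against 9.23% and 21.7% of all genes. With 3 libraries against 3, an exact permutation test of a single gene cannot give a two-sided p below 0.10. The median log2 fold change of the 25 hosts was -0.10, beside -0.05 over all genes tested and -0.09 over the 571 long non-coding RNA genes tested. After FPKM were rescaled to an equal sum per library (TPM), the median of all genes moved by -0.14 on the log2 scale, the host median was -0.24, and 4 hosts were called lower (SNHG15, EPB41L4A-AS1, SNHG12 and SNHG32), as were 852 of the 12281 genes. Relative to the median of all genes, the host median was -0.04 on FPKM and -0.05 on TPM. On FPKM it was 0.01 without the first NC library and also 0.01 without the third overEXP library. Without the second overEXP library, which stood apart, it was -0.01. Leaving out each of the remaining libraries gave values from -0.08 to -0.04, and using no filter gave -0.09.

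**Figure D2:**
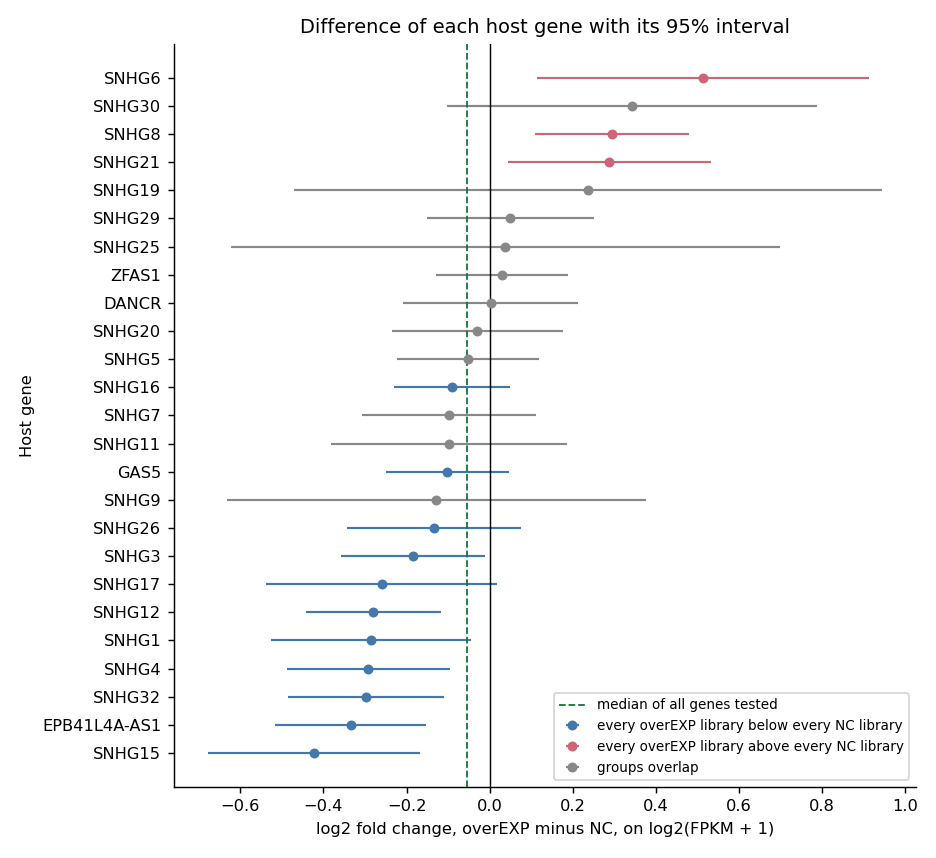
log2 fold change (overEXP minus NC, on log2(FPKM + 1)) of each tested host gene with its 95% interval from limma. Colour shows whether the libraries of the groups overlap, and the dashed line is the median of all genes tested, -0.05. The interval held 0 in 15 of the 25 genes.

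The largest difference downward was in SNHG15 (ENSG00000232956, chr7:44983019-44986961, minus strand), host of SNORA9. It was at 7.52, 6.57 and 7.88 FPKM in NC and 4.42, 5.39 and 5.87 FPKM in overEXP, so all overEXP libraries were the lower ones. Its log2 fold change was -0.42 (SE 0.11, limma adjusted p = 0.0753), a mean level in overEXP of 0.713 times that in NC. EPB41L4A-AS1 (ENSG00000224032, chr5:112160526-112164818, plus strand), host of SNORA13, had the smallest p of the hosts. Its levels were 4.58, 4.46 and 4.19 FPKM in NC and 3.33, 3.49 and 3.07 FPKM in overEXP. The groups did not overlap and were tight, with a log2 fold change of -0.33 (SE 0.08, limma adjusted p = 0.0576). Exons of EPB41L4A lie on the other strand over 2200 bases of it, and since the strandedness of the libraries is not given in the sources used here, reads of the pair may not be told apart. EPB41L4A itself was at 0.692 FPKM on average in NC and 0.602 FPKM in overEXP.

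SNHG12 (ENSG00000197989, chr1:28578538-28583132, minus strand), whose start with a mixed C and T tract is shown above, carries both box H/ACA snoRNAs and the box C/D snoRNA SNORD99. It stood at 10.3, 10.0 and 10.5 FPKM in NC and at 8.38, 7.76 and 8.76 FPKM in overEXP. All 3 overEXP libraries were below the NC range, with a log2 fold change of -0.28 (SE 0.07, limma adjusted p = 0.0688). SNHG4 (ENSG00000281398, chr5:139274102-139284899, plus strand), host of SNORA74A, was at 13.2, 13.2 and 14.3 FPKM in NC and 10.5, 10.1 and 12.2 FPKM in overEXP. Its groups were also separate, by -0.29 on the log2 scale (SE 0.08, limma adjusted p = 0.0928). SNHG4 shares 626 exonic bases on the same strand with MATR3, whose mean was 15.9 FPKM in NC and 10.4 FPKM in overEXP, so how reads were divided between them is uncertain. Without the third overEXP library, SNHG4 and SNHG1 passed the threshold, with limma adjusted p of 0.0478 and 0.0488. In that setting 383 of the 12281 genes tested were called lower and 93 higher.

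SNHG32 (ENSG00000204387, chr6:31834608-31839766, plus strand), host of SNORD48 and SNORD52, was among the 3 most abundant hosts in every library except the first overEXP library. It was at 59.9, 52.4 and 53.5 FPKM in NC and 48.3, 43.3 and 42.8 FPKM in overEXP. Every overEXP library was lower, with a log2 fold change of -0.30 (SE 0.08, limma adjusted p = 0.0836). SNHG1 (ENSG00000255717, chr11:62851978-62855953, minus strand), which carries box C/D snoRNAs such as SNORD22 and SNORD25 to SNORD28, was at 33.3, 34.6 and 35.6 FPKM in NC. Its overEXP libraries were at 24.6, 27.5 and 32.8 FPKM, the highest of them just under the lowest NC library. The difference was -0.29 on the log2 scale (SE 0.10, limma adjusted p = 0.152).

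Upward, SNHG6 (ENSG00000245910) had the largest difference, with a log2 fold change of 0.51 (SE 0.17, 95% interval 0.11 to 0.91, limma adjusted p = 0.128). Its first overEXP library was far above the other 2, and without it the value was 0.31. SNHG8 (ENSG00000269893, chr4:118278703-118285316, plus strand), host of SNORA24, was at 5.02, 4.66 and 5.32 FPKM in NC and 6.73, 6.41 and 5.94 FPKM in overEXP. All overEXP libraries were the higher ones, with a log2 fold change of 0.29 (SE 0.08, limma adjusted p = 0.0822). Exons of PRSS12 lie over 2487 bases of it on the other strand, and PRSS12 was at 3.87 FPKM on average in NC and 3.42 FPKM in overEXP. SNHG21, host of the Cajal body RNA SCARNA15, was the third gene with separate groups upward, at 2.22 ± 0.20 FPKM in NC and 2.94 ± 0.43 FPKM in overEXP (SD, n = 3 each), a log2 fold change of 0.29 with a limma adjusted p of 0.154. It shares 768 exonic bases on the same strand with ENSG00000252690, which averaged 0.854 FPKM in NC and 0.818 FPKM in overEXP, so how reads were divided between them is uncertain.

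Among the other tested hosts, SNHG3, SNHG17, SNHG26, GAS5 and SNHG16 had every overEXP library below every NC library, with log2 fold changes from -0.26 (SNHG17) to -0.09 (SNHG16) and adjusted p from 0.193 (SNHG3) to 0.412 (SNHG26). GAS5, growth arrest specific 5, named for its accumulation in growth-arrested cells, was tight in both groups, at 29.8 ± 0.41 FPKM in NC and 27.7 ± 1.38 FPKM in overEXP (SD, n = 3 each), and its 95% interval on the log2 scale ran from -0.25 to 0.05. ZFAS1, host of the SNORD12 family, DANCR, host of SNORA26, SNHG5, SNHG20 and SNHG29 had log2 fold changes between -0.05 and 0.05. For DANCR the value was 0.00 with a 95% interval from -0.21 to 0.21, and for ZFAS1 it was 0.03 with one from -0.13 to 0.19, so changes inside these limits were not detectable here. SNHG7, SNHG9 and SNHG11 had values of -0.10, -0.13 and -0.10, and SNHG25, SNHG30 and SNHG19 had values of 0.04, 0.34 and 0.24, all with overlapping groups.

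By the snoRNA carried, 8 of the 10 tested hosts of box H/ACA RNAs had negative values, with a median log2 fold change of -0.16 (SNHG8 and DANCR were the exceptions), while 61.6% of all genes tested had negative values. Of the 11 hosts of box C/D RNAs (GAS5 counted by background knowledge, since no snoRNA gene inside it was read), 6 had negative values, with a median of -0.05. SNHG12 and SNHG25 carry both kinds, and SNHG20 and SNHG21 carry Cajal body RNAs. Median transcript length was 2370 bases in the box H/ACA hosts and 1053 bases in the box C/D hosts. The difference between the classes, and the part of length in it, were not tested. By start, the 6 hosts with the tract at the annotated start, shown above, had a median log2 fold change of -0.17, and the other 15 with a promoter entry had one of -0.10. With the tract within 10 bases of the start, the median was -0.09 in the 14 hosts with it and -0.10 in the other 7. The gap was thus seen only with the stricter reading. SNHG6 and SNHG15, the largest differences upward and downward, had no promoter entry and were in neither split, as were SNHG9 and SNHG25. In both splits GAS5 and SNHG3 were counted as lacking the tract although their starts were not read. The median of the 7 is the value of GAS5 itself, so neither split sorts all hosts by their real start.

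Variation inside the groups differed much between hosts. In SNHG19, host of SNORD60, FPKM was 38.8, 26.8 and 20.8 in NC and 52.0, 27.5 and 25.1 in overEXP. The first library of each group was the highest, and the value without the first overEXP library was -0.08 where all 6 gave 0.24. The same held for 8 of the 25 hosts (32.0%: SNHG6, SNHG29, SNHG32, SNHG19, SNHG7, SNHG25, SNHG9 and SNHG30), against 11% of all genes tested. Of the 5 hosts whose canonical transcript is under 500 bases, 4 were among them (all except SNHG16), against 24.2% of the 633 genes of that length. Over those 633 genes the median deviation from the gene's mean was 0.14 on the log2 scale in the first overEXP library, and over genes of 4000 bases or more it was -0.15. The part of transcript length in these differences was not tested.

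**Figure D3:**
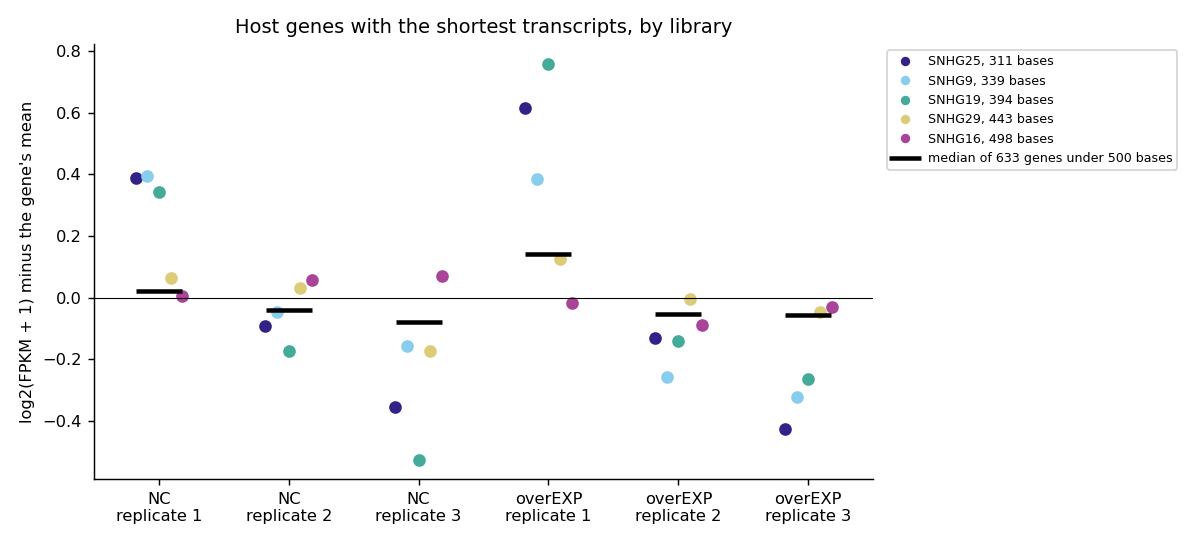
log2(FPKM + 1) minus the gene's mean over the 6 libraries, for the 5 tested host genes with a canonical transcript under 500 bases (points, offset sideways) and the median of all 633 such genes (bars). SNHG25, SNHG9, SNHG19 and SNHG29 are highest in replicate 1 of each group, and SNHG16 is not.

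Genes that act with the hosts were read from lists. The 79 ribosomal protein genes, the best known TOP genes, had a median log2 fold change of 0.20, with 72 positive values (91.1%). Over all genes tested, 4715 of 12281 values were positive. Of the 79, 9 were called higher and 0 lower, against 1.25% and 2.98% of all genes tested. Their median transcript length was 869 bases, and the median log2 fold change of all genes tested was 0.09 under 500 bases, 0.02 from 500 to 1000 bases and -0.07 from 2000 to 4000 bases. The part of length in their difference was not tested. RPL34 rose from 58.9 ± 3.65 to 115.3 ± 12.5 FPKM (SD, n = 3 each), and RPL39, RPL31 and RPS27 rose by 0.81, 0.67 and 0.77 on the log2 scale. The 24 other TOP messenger RNAs had a median of 0.07, with 1 called higher and 0 lower, beside the same 1.25% and 2.98%. The gene called was COX7C, which encodes a cytochrome c oxidase subunit and rose from 71.0 ± 1.89 to 124.0 ± 23.5 FPKM. The median of the ribosomal protein genes was 0.27 with median-of-ratios scaling, 0.11 with quantile normalization and 0.06 on TPM. On TPM that of the other TOP messenger RNAs turned to -0.08, while the median of all genes was -0.20. Relative to the median of all genes, the ribosomal protein genes stood at 0.25 on FPKM, 0.26 on TPM and 0.12 with quantile normalization. The other TOP messenger RNAs stood at 0.12, 0.12 and 0.03. The host median lay below both lists on FPKM and on TPM. TOP control genes (mTOR complex, LARP1 and related genes) had a median of -0.07, with 1 of 16 called higher and 0 lower, beside the same shares. That gene, DDIT4, an inhibitor of mTOR signalling, rose from 26.7 ± 1.68 to 88.9 ± 24.0 FPKM.

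The 18 snoRNP genes, which encode the proteins that package snoRNAs and assemble these particles, had 0 called, a smallest adjusted p of 0.0556 and a median of -0.12, with 13 negative values, beside 61.6% of all genes tested. At an unadjusted p under 0.05, 0 were higher and 7 lower, against 6.55% and 16.4% of all genes. Of the 16 genes of nonsense-mediated decay and the exon junction complex, 1 was called lower and 0 higher, against 2.98% and 1.25% of all genes. That gene, SMG8, part of the SMG1 kinase complex, fell from 11.6 ± 0.78 to 8.29 ± 0.79 FPKM (SD, n = 3 each, limma adjusted p = 0.0389). The median of the 16 was -0.12, with 14 negative values, set against the same 61.6%. Both medians were close to the host median with all 6 libraries and the filter of 1 FPKM. Without the first NC library they were -0.11 (snoRNP) and -0.13 (decay), beside -0.03 for the hosts. With an FPKM minimum of 5 they were -0.10 and -0.18, beside -0.10.

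**Figure D4:**
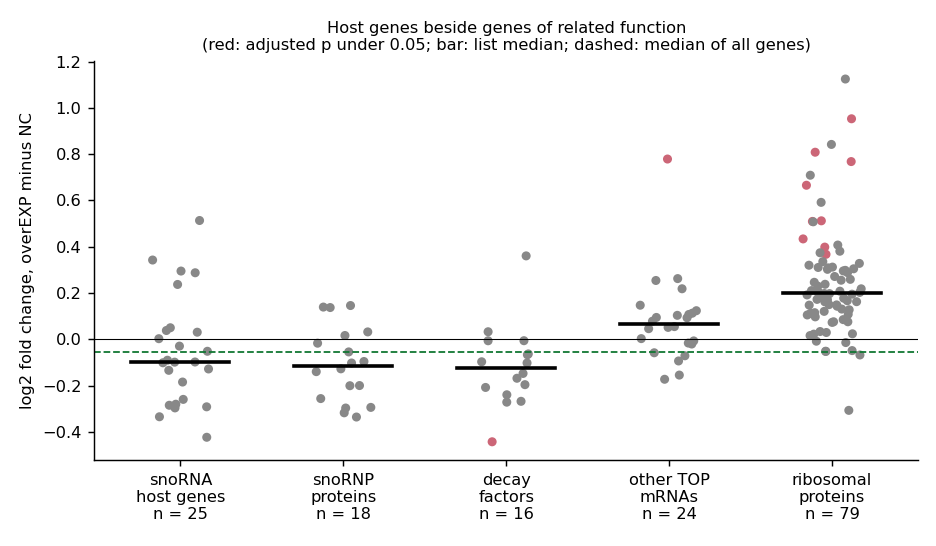
log2 fold change (overEXP minus NC) of each tested gene in 5 lists, with list medians as bars, genes past an adjusted p of 0.05 in red and the median of all genes tested dashed. Host genes have a median of -0.10 and no red point, and ribosomal protein genes have a median of 0.20 and 9 red points.

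The snoRNAs inside the hosts were also read. Outside SNHG14, GENCODE v44 places 61 such RNAs in 30 hosts; 58 were in the table, 28 of these stayed under 0.1 FPKM in every library, and 13 were tested, in 11 hosts. Of the 84 inside SNHG14, 1 was in the table and it was not tested. No selection of short RNAs is given in the sources used here, and a signal over a short intronic gene may be the snoRNA or unspliced host RNA, so these levels are uncertain. Of the 13, 1 was called lower and 0 higher, against 2.98% and 1.25% of all genes tested, and 11 had negative values, against 61.6%. The host had the same sign as the snoRNA in 8 of the 13. This agreement was not tested, and most snoRNA values were negative whatever the host. SNORD60 and an unnamed entry on nearly the same bases of SNHG19 both count among the 13.

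Printed here, chosen after their values were seen, are the only 2 whose groups did not overlap (SNORA71B and SNORD12C) and SNORD48, inside the most abundant host with a tested snoRNA, with sequences from the GRCh38 genome at the GENCODE v44 coordinates: SNORA71B (chr20:38425083-38425354, minus strand, in an intron of SNHG17), SNORD48 (chr6:31835263-31835326, plus strand, in SNHG32) and SNORD12C (chr20:49278940-49279028, plus strand, in ZFAS1). For the box C/D RNAs, capitals mark the C box (TGATGA) and the D box (CTGA), the motifs the core proteins bind. The entry of SNORA71B spans 272 bases and is in lower case throughout.
SNORA71B: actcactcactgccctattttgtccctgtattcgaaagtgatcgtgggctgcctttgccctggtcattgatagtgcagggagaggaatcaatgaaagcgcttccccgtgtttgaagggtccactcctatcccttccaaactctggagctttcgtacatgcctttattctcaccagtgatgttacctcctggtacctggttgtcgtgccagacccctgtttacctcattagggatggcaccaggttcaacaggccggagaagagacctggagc
SNORD48: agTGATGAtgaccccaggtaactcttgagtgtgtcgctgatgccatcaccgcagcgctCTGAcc
SNORD12C: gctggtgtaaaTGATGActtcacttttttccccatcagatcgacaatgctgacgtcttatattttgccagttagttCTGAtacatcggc

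SNORA71B, of a family with several near copies in SNHG17, was at 2.24, 2.78 and 2.49 FPKM in NC and 0.631, 1.11 and 0.733 FPKM in overEXP. It was lower in every overEXP library, with a log2 fold change of -0.95 (SE 0.12, limma adjusted p = 0.0128), while its host SNHG17 had -0.26 (adjusted p = 0.245). The call was lost without the second NC library (adjusted p = 0.0711), without the third (0.0683) and with no filter on low values (0.0861). On log2(FPKM + 0.1) the value was -1.52, so its size depends on the pseudocount. Reads of the SNORA71 copies may have been split between them.

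SNORD48, a box C/D RNA often used as a reference in small RNA assays, was at 13.7, 21.9 and 22.6 FPKM in NC and 7.15, 11 and 15.6 FPKM in overEXP. The groups overlapped, with a log2 fold change of -0.76 (SE 0.28, limma adjusted p = 0.152), and SNHG32 around it had -0.30. SNORD12C was at 3.25, 3.79 and 5.47 FPKM in NC and 3.16, 2.11 and 2.48 FPKM in overEXP. Its libraries were separate by a narrow margin at -0.52 (SE 0.17, limma adjusted p = 0.130), while ZFAS1 had 0.03. SNORD104 in SNHG25 was the most abundant, at 18.9 to 33.1 FPKM over all libraries, with a log2 fold change of -0.09 and overlapping groups. SNORD60 and an unnamed entry that covers nearly the same bases of SNHG19 had values of -0.80 and 0.21, and their reads cannot be told apart. The other 7 tested snoRNAs had overlapping groups and values from -0.46 (SNORD93 in SNHG26) to 0.03 (SNORA74D in SNHG4).

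**Figure D5:**
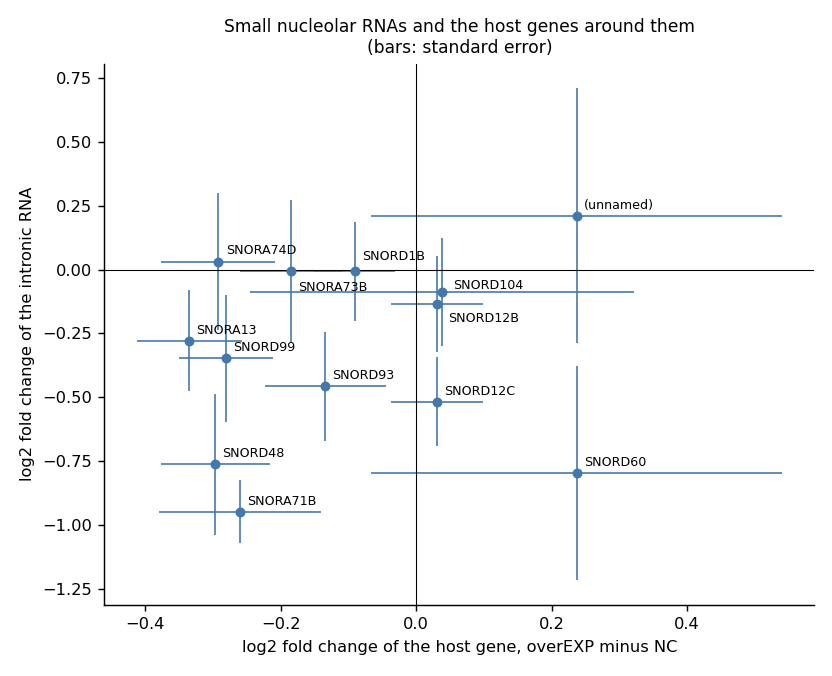
log2 fold change (overEXP minus NC) of each of the 13 tested intronic RNAs against that of its host gene, with standard errors as bars. SNORA71B, at -0.95, was the only one called, and 11 of the 13 points lie below 0 on the vertical axis.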

How the data were processed

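RNA of 6 HCT116 libraries (3 NC, 3 overEXP) was read on an Illumina NovaSeq instrument. The authors checked reads with FastQC, aligned them using HISAT2 (version 2.0.4 by the submitters' notes) against GRCh38, assembled with StringTie, merged with gffcompare and deposited gene FPKM for each library. The authors' fold changes, p-values and q-values in the same table were not used. Depth is unknown, so precision is known only from the spread between libraries.

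Groups came from the sample titles, columns from the sample descriptions. Genes that reached 1 FPKM in 3 or more libraries were tested on log2(FPKM + 1) with limma 3.58.1 in R 4.3.3 (trend, no covariate, two-sided, Benjamini-Hochberg over 12281 genes). A low gene's fold change is understated on this scale. Of the table's IDs, 37906 were found in GENCODE v44, which gave exons and intronic RNAs.

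The members and lists were chosen with earlier results of these data known. All 25 tested members are named, with values in every library for the 8 of smallest p and the 5 of highest mean, and up to 4 called genes per related list. The intronic RNAs given with sequences were chosen after their values were seen. Alternatives were pseudocount, filter, scaling, variance trend, replicate block and leaving out each library.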

Additional observations from a re-analysis of the deposited data

How the results depend on the processing

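Over the 25 host genes, 339 alternative values were computed: 312 kept their sign and their side of the threshold, 8 passed it and 19, in 9 genes, changed sign. The number called higher was 0 throughout. The number called lower, 0 on FPKM, was 1 with quantile normalization (SNHG32) and 4 on TPM. It was 0 to 2 when each library was left out (2 without overEXP replicate 3). With an FPKM minimum of 5, only 14 hosts were tested and 1 (SNHG12) was called lower. In that setting 438 of 6618 genes were called lower and 167 higher. The host median was -0.032 with median-of-ratios scaling, -0.034 with quantile normalization, -0.24 on TPM and from -0.10 to -0.029 when each library was left out. Over all genes, the calls (154 higher, 366 lower on FPKM) were 94 and 852 on TPM, 345 and 359 with median-of-ratios scaling, 330 and 395 with quantile normalization, 3 and 2 with no filter, 118 and 261 without the variance trend, and from 23 to 199 and from 21 to 383 when each library was left out. Signs changed on TPM for DANCR (-0.13), ZFAS1 (-0.11), SNHG29 (-0.092) and SNHG25 (-0.098), and with median-of-ratios scaling for SNHG20 (0.018) and SNHG5 (0.0036). When each library was left out, values ran through 0 for DANCR (-0.047 to 0.078), ZFAS1 (-0.013 to 0.057), SNHG29 (-0.024 to 0.095), SNHG25 (-0.26 to 0.26), SNHG20 (-0.072 to 0.017), SNHG11 (-0.17 to 0.0034), SNHG19 (-0.083 to 0.47) and SNHG9 (-0.35 to 0.038). The cause was not tested.

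The libraries share replicate numbers in the labels, but deviations of same-numbered libraries correlated at 0.358, -0.016 and 0.367, so the numbers were not taken to pair them, and not every library correlated best with its own number. With the replicate block, 0 host genes were called higher and 0 lower, the host median stayed at -0.098, SNHG6 had an adjusted p of 0.0560, and the calls over all genes were 118 and 213. SNORA71B had an adjusted p of 0.0189 with the block. Depth is unknown, and 3 libraries a group limit small differences.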
